A study of Homo sapiens with 6 samples.

Results

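The genes described here carry out DNA replication: 45 genes that load and fire replication origins, copy DNA at the fork, supply deoxynucleotides or pass chromatin on behind the fork. They were chosen by gene symbol from the 26364 genes of the deposited table, with earlier results of these data known. All 45 were found there and were abundant enough to be tested. They fall into 17 MCM and origin genes, 18 polymerase, clamp and fork genes, 4 nucleotide synthesis genes and 6 chromatin and partner genes. RNA was sequenced from Calu3, an established line from a human lung adenocarcinoma, in 3 libraries transfected with siRNA against BRD8 and in 3 transfected with a negative control siRNA. Each transfection used 20 nmol of siRNA and the RNAiMax reagent, and no other genotype or drug is named. BRD8 is a bromodomain protein that belongs to TIP60/NuA4, a complex that acetylates histones. A single BRD8 reagent was used, so effects of that reagent apart from BRD8 loss cannot be told apart from those of BRD8 loss. Every sample label names Calu3, although the extraction text speaks of HBE cells. Since the labels give no word on separate cultures, the p-values reflect only how these 6 libraries vary, and that variation may be technical.

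Before S phase, the origin recognition complex, CDC6 and CDT1 load the MCM2-7 ring onto DNA, which licenses an origin, and CDC45 and the GINS complex then turn that ring into the active helicase. DNA polymerase alpha with its primase starts each strand, the RFC clamp loader places the PCNA ring, and polymerases epsilon and delta extend the leading and lagging strands. Ribonucleotide reductase, thymidylate synthase and thymidine kinase feed the fork with deoxynucleotides. Many of these genes are transcribed at the G1 to S transition through E2F factors, which bind near their starts.

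The BRD8 siRNA libraries held 34427104 to 37896467 reads assigned to genes and the control siRNA libraries 33640814 to 37081766. BRD8 itself averaged 1184 ± 117 normalized counts in BRD8 siRNA libraries and 2916 ± 158 in control siRNA libraries (SD, n = 3 each), a log2 fold change of -1.30 (SE 0.0904, adjusted p = 1.13e-04), with exons that KIF20A overlaps on the other strand. Airway markers were abundant in both groups, with the summed normalized counts of 10 airway markers at 522209 to 577561 in BRD8 siRNA libraries and 390580 to 479590 in control siRNA libraries, and 5 of the 10 rose. The defining leukocyte markers CD3E and PTPRC stayed under the mean of 10 that the test required, and so did all 4 endothelial markers and 3 of 5 fibroblast markers. The leukocyte markers PTPRC, CD3E, CD68 and LYZ summed to 18648 to 19166 normalized counts in BRD8 siRNA libraries and 17953 to 19794 in control siRNA libraries, nearly all of it LYZ and CD68. The 5 fibroblast markers summed to 211 to 228 in BRD8 siRNA libraries and 213 to 225 in control siRNA libraries, and the 4 endothelial markers to 11.4 to 13.5 and to 4.32 to 11.2 in those groups. Within these lists LUM of the fibroblast list and CD68 of the leukocyte list rose, both named after their values were seen. LUM averaged 54.7 normalized counts in BRD8 siRNA libraries and 28.5 in control siRNA libraries (log2 fold change 0.91, adjusted p = 0.0211), and CD68, whose locus overlaps other annotated genes, averaged 1926 and 1486 in those groups (log2 fold change 0.38, adjusted p = 0.0390). Without single libraries the adjusted p of LUM reached 0.0748 (BRD8 library 3), 0.0735 (BRD8 library 1) and 0.0519 (control library 3), and in these fits CD68 was called only without control library 2, with 0.0612 to 0.138 in the other 5. Whether these rises had a part in the changes of replication genes was not tested. Along the second principal component, 20.6% of the variance, control library 2 lay apart from the other libraries.

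After BRD8 siRNA, 42 of the 45 listed genes had a log2 fold change below 0, against 7983 of the 15354 genes tested. The list was chosen with earlier results of these data known, so its shares beside those of all genes are descriptions only. Of the 45 genes, 25 fell (limma on log2 of the normalized count plus 1, Benjamini-Hochberg adjusted p under 0.05), where 8.93% of the 15354 genes tested fell. None rose, where 10.1% of genes rose, and at an unadjusted p under 0.05 there were 36 lower and 0 higher, against 16.3% and 16.8% of genes tested. The edgeR quasi-likelihood test, DESeq2 and the authors' deposited table also called 0 of the 45 higher, and called 25, 28 and 27 lower. The BRD8 siRNA libraries lay entirely below the control siRNA libraries for 33 of the 45 genes, against 17.9% of genes tested, and entirely above them for 0, against 18.9%. The median log2 fold change was -0.33, against -0.01 for all genes tested, and single genes ranged from -0.79 for CDT1 to 0.08 for POLD3. Together the 45 genes took 0.128%, 0.128% and 0.124% of the reads in BRD8 siRNA libraries, against 0.148%, 0.155% and 0.156% in control siRNA libraries, so the shares did not overlap. In bulk RNA, fewer cells in S phase and less of these RNAs per cell cannot be told apart.

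**Figure D1:**
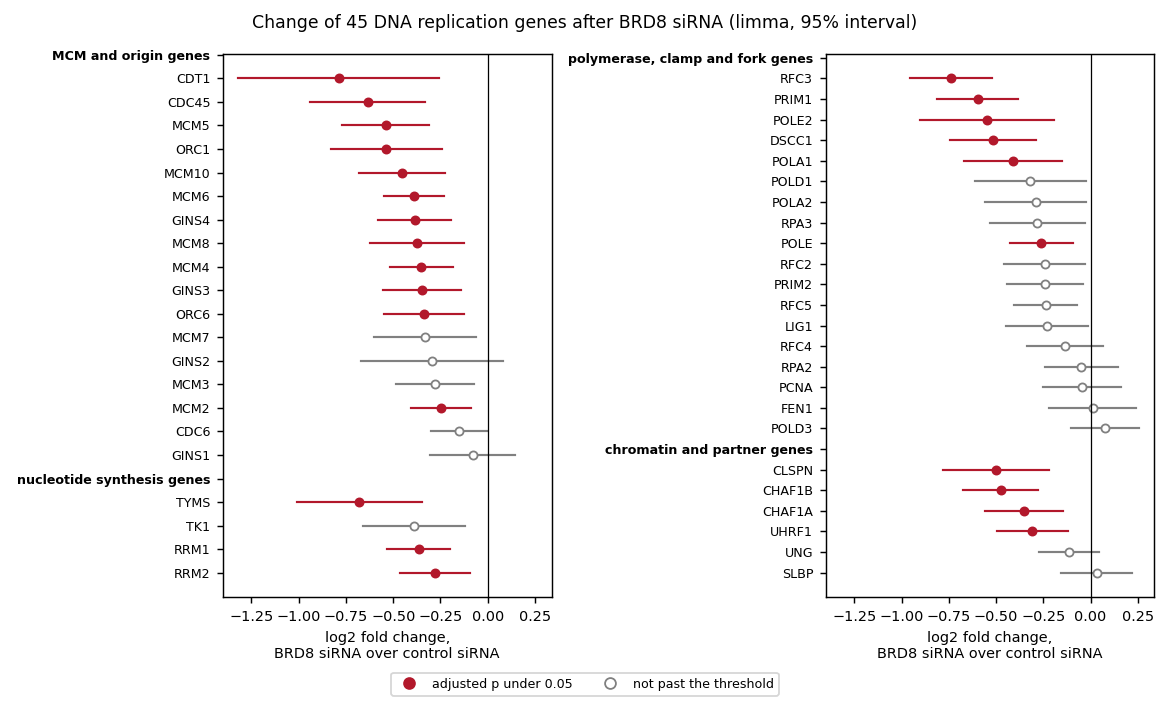
Log2 fold change of each replication gene, BRD8 siRNA over control siRNA, as points with 95% intervals that are not adjusted for multiple testing, and filled where the adjusted p was under 0.05. All 25 filled points lie below 0, the lowest at -0.79 for CDT1, and the unfilled points run up to 0.08 for POLD3.

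The changes were small, and 18 of the 25 calls ended in at least 1 of the fits that left out a library. The 7 called in each of these 6 fits were MCM6, MCM5, CHAF1B, TYMS, RFC3, PRIM1 and DSCC1. Among all genes tested, 481 of the 1371 that fell were called in each of these 6 fits, so most lower calls ended there too. Without BRD8 library 1, 2 or 3, the fits called 18, 11 and 8 of the 45 genes lower. Without control library 1, 2 or 3, they called 15, 27 and 7. Leaving out control library 2, the one that lay apart, kept all 25 calls. That fit also called more genes in all, 5226 against 2920 with every library kept. The median log2 fold change of the 45 genes was -0.30 in it, against -0.33. Control library 2 was the highest of the 3 controls for 22 of the 45 genes (48.9%), against 43.7% of all genes tested, and the lowest for 12 (26.7%), against 41.4%.

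Among the origin and helicase genes 12 of 17 fell and 0 rose, the median log2 fold change was -0.35, and all 17 had a fold change below 0. All 6 subunits of the MCM2-7 helicase ring lay lower in every BRD8 siRNA library than in any control siRNA library, and 4 of the 6 passed the test. MCM6 had 1462, 1463 and 1428 normalized counts in BRD8 siRNA libraries, against 1843, 1881 and 1983 in control siRNA libraries (log2 fold change -0.39, SE 0.0697, adjusted p = 0.0062). MCM5 had 652, 739.7 and 626 normalized counts in BRD8 siRNA libraries, against 897, 1079 and 958 in control siRNA libraries (log2 fold change -0.54, SE 0.101, adjusted p = 0.00774). MCM4 had 1285, 1191 and 1226 normalized counts in BRD8 siRNA libraries, against 1579, 1519 and 1626 in control siRNA libraries (log2 fold change -0.35, SE 0.0731, adjusted p = 0.0116). The BRD8 siRNA libraries of MCM6 lay within a few percent of each other, while control library 2 was the highest of the controls for MCM5 and the lowest for MCM4. MCM2 had 1982, 2144 and 2118 normalized counts in BRD8 siRNA libraries, against 2399.8, 2468 and 2537 in control siRNA libraries (log2 fold change -0.25, SE 0.0703, adjusted p = 0.0407), the smallest change of the 4. MCM3 had 2431, 2118 and 2053 normalized counts in BRD8 siRNA libraries, against 2443, 2810.3 and 2745 in control siRNA libraries, and BRD8 library 1 came close to control library 1 (log2 fold change -0.28, SE 0.0917, adjusted p = 0.0654). MCM7 had 1807, 1749.6 and 1468 normalized counts in BRD8 siRNA libraries, against 1809, 2373 and 2156 in control siRNA libraries, where again those libraries nearly met (log2 fold change -0.33, SE 0.119, adjusted p = 0.0863). The exons of MCM7 overlap those of AP4M1 and the exons of MCM2 those of TPRA1, each on the other strand, and since the library kit does not mark strand, such reads cannot be assigned to either gene with certainty. Per kilobase of transcript, MCM3 was the most abundant subunit, with normalized counts of 686 in BRD8 siRNA libraries and 831 in control siRNA libraries, and MCM5 the least, with 190.3 in BRD8 siRNA libraries and 277 in control siRNA libraries.

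**Figure D2:**
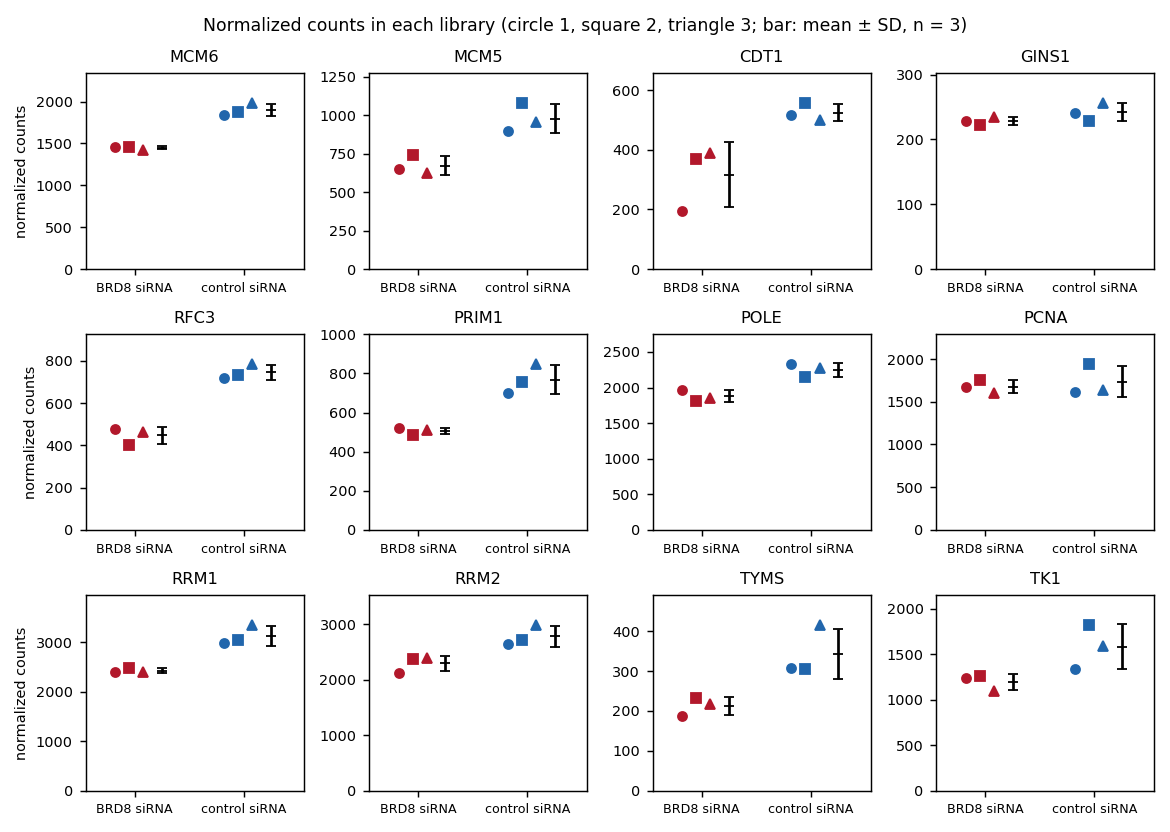
Normalized counts of 12 replication genes in each library, BRD8 siRNA at left in red and control siRNA at right in blue, with the mean and SD of 3 libraries as a black bar. The groups are apart for MCM6, MCM5, CDT1, RFC3, PRIM1, POLE, RRM1, RRM2, TYMS and TK1, and overlap for GINS1 and PCNA.

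Of the factors that load the ring, CDT1, ORC1 and ORC6 fell and CDC6 did not pass. CDT1, which brings MCM2-7 to origins, had 193, 368 and 391 normalized counts in BRD8 siRNA libraries, against 517, 557 and 500.0 in control siRNA libraries. BRD8 library 1 lay far below the other 2 BRD8 siRNA libraries, which were close to each other, and all 3 were under the controls (log2 fold change -0.79, SE 0.235, adjusted p = 0.0466, n = 3 each). Without BRD8 library 1 the log2 fold change of CDT1 was -0.47 and still passed (adjusted p = 0.0266). The authors' deposited table gives CDT1 an adjusted p of 0.00691. CDC6, the other loading factor, was the most abundant of the 17 per kilobase, at 1063 in BRD8 siRNA libraries and 1181 in control siRNA libraries. It had 5244, 5135 and 4954 normalized counts in BRD8 siRNA libraries, against 5482, 5779 and 5785 in control siRNA libraries, groups that were close but did not overlap, and did not pass (log2 fold change -0.15, SE 0.066, adjusted p = 0.144). ORC1, the ATPase subunit of the origin recognition complex, had 270.3, 230.4 and 238 normalized counts in BRD8 siRNA libraries, against 300.4, 397 and 380.1 in control siRNA libraries (log2 fold change -0.54, SE 0.13, adjusted p = 0.0219). ORC6, its smallest subunit, had 404, 409.7 and 352 normalized counts in BRD8 siRNA libraries, against 493, 480.4 and 495 in control siRNA libraries (log2 fold change -0.34, SE 0.0934, adjusted p = 0.0375). Both fell, with control library 1 the nearest to the BRD8 siRNA libraries for ORC1.

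Among the factors that fire a licensed origin, CDC45, MCM10 and 2 of the 4 GINS subunits fell. CDC45, the partner of the active helicase, had 304, 284 and 269 normalized counts in BRD8 siRNA libraries, against 371, 528 and 445 in control siRNA libraries (log2 fold change -0.63, SE 0.134, adjusted p = 0.0125), with control libraries spread more widely than the BRD8 siRNA libraries. Of the GINS complex, GINS4 had 708, 718 and 672 normalized counts in BRD8 siRNA libraries, against 905, 853 and 989.8 in control siRNA libraries (log2 fold change -0.39, SE 0.0857, adjusted p = 0.0151), and GINS3 had 347, 317 and 313 normalized counts in BRD8 siRNA libraries, against 426, 402 and 417 in control siRNA libraries (log2 fold change -0.35, SE 0.0904, adjusted p = 0.0285), so both fell with groups that did not overlap. GINS2 had 193, 208 and 178 normalized counts in BRD8 siRNA libraries, against 193, 303 and 225 in control siRNA libraries, where control library 1 lay within the BRD8 siRNA range (log2 fold change -0.29, SE 0.165, adjusted p = 0.257). GINS1 had 229, 223 and 235 normalized counts in BRD8 siRNA libraries, against 241, 229 and 256 in control siRNA libraries, where control library 2 lay within it (log2 fold change -0.08, SE 0.0988, adjusted p = 0.623, 95% interval -0.30 to 0.15). The GINS subunits were not tested against each other, and exons of GINS2 overlap GSE1. MCM10, which helps to start unwinding, had 439.8, 371 and 396 normalized counts in BRD8 siRNA libraries, against 522, 533 and 598 in control siRNA libraries (log2 fold change -0.45, SE 0.101, adjusted p = 0.0154), and MCM8, a helicase of the MCM family with roles in recombination, had 580.1, 493 and 597 normalized counts in BRD8 siRNA libraries, against 731, 648 and 788 in control siRNA libraries (log2 fold change -0.37, SE 0.11, adjusted p = 0.0442). Both fell and in both the groups were apart. Of the 12 falls in origin and helicase genes, only those of MCM6 and MCM5 were called in every fit without 1 library. Without control library 3 the other 10 had adjusted p-values of 0.0526 to 0.178, and without BRD8 library 3 the calls of 9 ended, at 0.0546 to 0.142. Without BRD8 library 2 the calls of 8 ended (0.0524 to 0.155), without control library 1 those of 5 (0.0754 to 0.110), and without BRD8 library 1 those of ORC6, MCM8 and MCM2 (0.0643 to 0.120). With no filter on low genes CDT1, MCM8 and ORC6 had adjusted p-values of 0.0511, 0.0539 and 0.0541, and after quantile normalization MCM2 and MCM8 had 0.0609 and 0.0550.

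The promoters of these genes were searched for the letters that E2F factors favour, since E2F sites near the start are a known feature of replication genes. RefSeq promoters of GRCh38.p14, 250 bases before to 50 after the first listed start, were matched for 38 of the 45 genes (the others were MCM4, MCM5, GINS4, DSCC1, RPA2, RPA3 and POLD3). One of TTTCCCGC, TTTCGCGC, TTTGCCGC or TTTGGCGC, on either strand, stood in 20 of the 38 (52.6%), against 3.33% of all 27305 promoters. Among origin and helicase genes 10 of 14 had a match. The 200 bases before the start of MCM6 and CDT1 are shown because MCM6 kept its call in every fit and CDT1 had the lowest log2 fold change of the 45. The capitals mark the E2F letters, read 5′ to 3′ on the strand of the gene, and in MCM6 each capital run holds TTTGGCGC and, overlapping it on the other strand, TTTCGCGC.
MCM6, chr2:135876444-135876643, minus strand: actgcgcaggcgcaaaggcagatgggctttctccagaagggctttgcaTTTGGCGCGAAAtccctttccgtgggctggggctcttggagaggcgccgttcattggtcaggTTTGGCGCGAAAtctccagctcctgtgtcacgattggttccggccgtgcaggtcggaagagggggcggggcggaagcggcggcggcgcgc
CDT1, chr16:88803589-88803788, plus strand: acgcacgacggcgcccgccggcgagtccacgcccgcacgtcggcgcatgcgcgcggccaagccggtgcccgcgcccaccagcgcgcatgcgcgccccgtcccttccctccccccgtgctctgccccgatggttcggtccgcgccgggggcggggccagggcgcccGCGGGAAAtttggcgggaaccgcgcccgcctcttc
The MCM6 stretch holds its pair of capital runs at 152 and at 90 bases before the start, and the CDT1 stretch has 1 match at 35 bases before it. A match is a description of the letters and not a bound site.

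Among polymerase, clamp and fork genes 6 of 18 fell, 0 rose, and the median log2 fold change was -0.25, and 16 of 18 had a fold change below 0. Once the trend with transcript length and GC content was removed, 14 of the 18 passed, while the share of all tested genes called lower also grew, to 18.4%. The clearest falls were in the clamp loader and the primase. RFC3, a small subunit of the clamp loader that places PCNA, had 477, 400.2 and 465 normalized counts in BRD8 siRNA libraries, against 717, 734 and 786 in control siRNA libraries. The BRD8 siRNA values were all well below the controls, and RFC3 had the smallest adjusted p of the 45 genes (log2 fold change -0.74, SE 0.0965, adjusted p = 0.00158). The other small subunits had fold changes nearer 0. RFC5 had 845, 875 and 872 normalized counts in BRD8 siRNA libraries, against 986, 1033 and 1039 in control siRNA libraries (log2 fold change -0.24, SE 0.0731, adjusted p = 0.0527). RFC2 had 527, 595 and 520.1 normalized counts in BRD8 siRNA libraries, against 633, 699 and 612 in control siRNA libraries (log2 fold change -0.24, SE 0.0944, adjusted p = 0.108). RFC4 had 1729.9, 1849 and 1662 normalized counts in BRD8 siRNA libraries, against 1733, 2086 and 1944 in control siRNA libraries (log2 fold change -0.13, SE 0.0891, adjusted p = 0.335). None of these 3 passed, the groups of RFC5 and RFC2 did not overlap, and control library 1 of RFC4 lay within the BRD8 siRNA range. The exons of RFC4 overlap EIF4A2 and those of RFC5 overlap WSB2, on the other strand. DSCC1, a subunit of the alternative clamp loader that holds CHTF18, had 199.6, 197 and 179.8 normalized counts in BRD8 siRNA libraries, against 282, 276 and 266 in control siRNA libraries (log2 fold change -0.52, SE 0.0997, adjusted p = 0.00862), with groups far apart and little spread within them.

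Primase and polymerase alpha, which lay down the first stretch of each strand, gave 2 falls among 4 subunits. PRIM1, the catalytic primase subunit, had 519, 487 and 512 normalized counts in BRD8 siRNA libraries, against 700.4, 758 and 849 in control siRNA libraries. It fell (log2 fold change -0.60, SE 0.0943, adjusted p = 0.0036), though its exons overlap NACA on the same strand and HSD17B6 on the other. PRIM2, the large primase subunit, had 536, 555 and 524 normalized counts in BRD8 siRNA libraries, against 586, 677 and 651 in control siRNA libraries, apart but not past the threshold (log2 fold change -0.24, SE 0.0881, adjusted p = 0.0899). POLA1, the catalytic polymerase subunit, had 527, 474 and 537 normalized counts in BRD8 siRNA libraries, against 719, 583 and 755 in control siRNA libraries (log2 fold change -0.41, SE 0.114, adjusted p = 0.0365), with control library 2 well below the other controls. POLA2, its partner subunit, had 676, 548 and 545 normalized counts in BRD8 siRNA libraries, against 638, 786 and 739 in control siRNA libraries, where BRD8 library 1 lay within the control range (log2 fold change -0.29, SE 0.118, adjusted p = 0.121). The 4 subunits all had mean levels below control.

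Of the polymerases that extend the strands, the epsilon subunits POLE and POLE2 fell and the delta subunits POLD1 and POLD3 did not pass; further subunits of both are described with the other replication genes. POLE, the leading strand enzyme, had 1972, 1810.3 and 1849 normalized counts in BRD8 siRNA libraries, against 2332, 2143 and 2273 in control siRNA libraries (log2 fold change -0.26, SE 0.0736, adjusted p = 0.039). POLE2, its second subunit, had 125, 119 and 91.8 normalized counts in BRD8 siRNA libraries, against 151, 153 and 186 in control siRNA libraries (log2 fold change -0.55, SE 0.156, adjusted p = 0.0401). In both, the groups did not overlap. POLD1, the catalytic subunit of polymerase delta, had 504, 725 and 603 normalized counts in BRD8 siRNA libraries, against 769, 782 and 713 in control siRNA libraries, with BRD8 library 2 inside the control range (log2 fold change -0.32, SE 0.129, adjusted p = 0.121). POLD3, an accessory subunit, had 761, 746 and 814 normalized counts in BRD8 siRNA libraries, against 739, 702 and 760.2 in control siRNA libraries and was the only one of the 18 fork genes other than FEN1 with a mean above control (log2 fold change 0.08, SE 0.0804, adjusted p = 0.553). No test compared epsilon with delta. Calls of POLA1, POLE and POLE2 ended without any 1 library other than control library 2. They then had adjusted p-values of 0.0512 to 0.0781 without BRD8 library 1, 0.0781 to 0.148 without BRD8 library 2, 0.0814 to 0.133 without BRD8 library 3, 0.0670 to 0.117 without control library 1 and 0.152 to 0.162 without control library 3. With no filter on low genes POLE2 had 0.0609.

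Neither the sliding clamp PCNA nor the enzymes that finish lagging strand fragments passed the test. PCNA had 1671, 1759 and 1605 normalized counts in BRD8 siRNA libraries, against 1619.8, 1942 and 1643 in control siRNA libraries. Control library 2 was the highest of all 6, while the other controls lay within the BRD8 siRNA range (log2 fold change -0.04, SE 0.0906, adjusted p = 0.773, 95% interval -0.25 to 0.16), and without control library 2 the log2 fold change was 0.04. FEN1, the flap endonuclease, had 2026, 1944 and 1694 normalized counts in BRD8 siRNA libraries, against 1698, 2075 and 1849 in control siRNA libraries, with overlapping groups (log2 fold change 0.01, SE 0.101, adjusted p = 0.951, 95% interval -0.22 to 0.24). LIG1, the ligase that seals the fragments, had 970.0, 1166 and 1011 normalized counts in BRD8 siRNA libraries, against 1136, 1294 and 1258 in control siRNA libraries, where BRD8 library 2 lay above control library 1 (log2 fold change -0.23, SE 0.0956, adjusted p = 0.128). RPA3 and RPA2 are subunits of the protein that coats single strands. RPA3 had 1552, 1802 and 1561 normalized counts in BRD8 siRNA libraries, against 1744, 2286 and 1968 in control siRNA libraries (log2 fold change -0.28, SE 0.111, adjusted p = 0.113). RPA2 had 714, 738 and 704 normalized counts in BRD8 siRNA libraries, against 735, 802 and 696 in control siRNA libraries (log2 fold change -0.05, SE 0.0844, adjusted p = 0.726). In both, control library 2 was the highest of all 6 and the groups overlapped. The intervals of PCNA and FEN1 leave room for falls of the size seen in MCM2 for PCNA, at -0.25, and of a little less for FEN1, so a missed threshold does not show that their levels were equal. Exons of FEN1 overlap FADS2 on the same strand and TMEM258 on the other, and those of RPA3 overlap UMAD1.

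The E2F letters stood in 7 of the 14 fork promoters matched, among them those of RFC3, POLA1 and PCNA, which are shown because 2 of these genes fell and PCNA did not. The capitals again mark the E2F letters.
RFC3, chr13:33817949-33818148, plus strand: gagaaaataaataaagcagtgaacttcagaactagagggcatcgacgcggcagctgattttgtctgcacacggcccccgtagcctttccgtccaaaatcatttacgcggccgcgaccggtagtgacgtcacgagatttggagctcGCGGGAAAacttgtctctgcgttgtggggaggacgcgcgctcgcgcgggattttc
POLA1, chrX:24693718-24693917, plus strand: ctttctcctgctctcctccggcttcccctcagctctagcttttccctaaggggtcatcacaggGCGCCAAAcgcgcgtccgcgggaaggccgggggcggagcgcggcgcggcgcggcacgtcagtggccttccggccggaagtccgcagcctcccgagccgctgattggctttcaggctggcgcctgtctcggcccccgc
PCNA, chr20:5126623-5126822, minus strand: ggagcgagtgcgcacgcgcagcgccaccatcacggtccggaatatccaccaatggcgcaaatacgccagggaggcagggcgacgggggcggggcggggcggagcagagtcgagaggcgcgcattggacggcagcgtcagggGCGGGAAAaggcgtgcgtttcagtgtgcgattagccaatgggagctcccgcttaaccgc
The capitals spell the reverse complement of TTTCCCGC in RFC3 and PCNA, at 55 and 59 bases before the start, and that of TTTGGCGC in POLA1, at 137 bases before it. The same letters stood at nearly the same distance in RFC3 (log2 fold change -0.74) and in PCNA (-0.04). These promoters were picked after the calls were known, and whether E2F letters had a part in the changes was not tested.

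**Figure D3:**
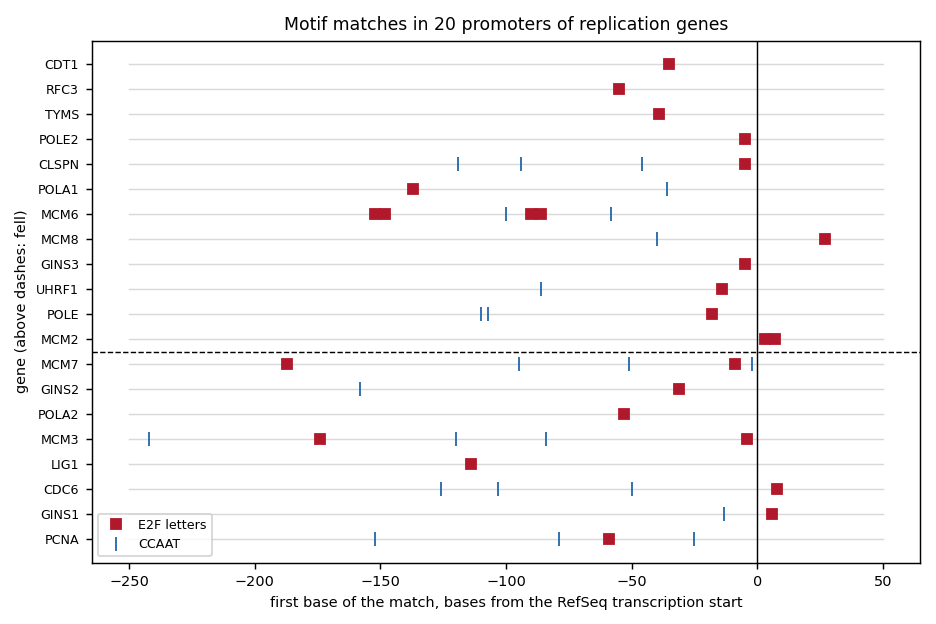
First base of each E2F match (red squares) and CCAAT match (blue ticks) in the 20 replication promoters with E2F letters, in bases from the RefSeq transcription start. Genes that fell are above the dashed line in order of fold change and those that did not pass are below it, and E2F matches stood in both, as in RFC3 at -55 and PCNA at -59.

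Across the 38 promoters E2F letters were found in 12 of the 21 genes that fell and in 8 of the 17 that did not pass. CCAAT on either strand, the letters bound by NF-Y, stood in 22 of the 38 (57.9%), against 35.7% of all promoters. TTTGAA or TTCGAA, the core of the CHR element of genes that peak in mitosis, stood in 2 of the 38 (5.26%), against 16.6%. For E2F, CCAAT and CHR letters alike, the promoters compared were not matched for base composition or gene type, so these shares are descriptions only. No motif contains the letters of another, and E2F matches on opposite strands can overlap, as in MCM6 and MCM2.

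All 4 nucleotide synthesis genes lay lower in every BRD8 siRNA library than in any control siRNA library, and 3 of the 4 passed, with a median log2 fold change of -0.38. RRM1, the large subunit of ribonucleotide reductase, had 2389, 2485 and 2393 normalized counts in BRD8 siRNA libraries, against 2975, 3053 and 3349.6 in control siRNA libraries (log2 fold change -0.37, SE 0.0735, adjusted p = 0.0101). RRM2, the small subunit that limits the enzyme in S phase, had 2132, 2369 and 2387 normalized counts in BRD8 siRNA libraries, against 2641, 2714 and 2993 in control siRNA libraries (log2 fold change -0.28, SE 0.0818, adjusted p = 0.0454). Both subunits fell, with control library 3 the highest in each. Exons of RRM1 overlap RRM1-AS1 on the other strand and those of RRM2 overlap AC007240.1 on the same strand. TYMS, which makes thymidylate from deoxyuridylate, had 188, 231 and 217 normalized counts in BRD8 siRNA libraries, against 308, 304 and 416 in control siRNA libraries. It had the largest fold change of the 4 (log2 fold change -0.68, SE 0.146, adjusted p = 0.0133), with control library 3 well above the other controls, which were close to each other. Its exons overlap ENOSF1 and TYMSOS on the other strand. TK1, which salvages thymidine, had 1241, 1257 and 1098 normalized counts in BRD8 siRNA libraries, against 1333, 1822 and 1589 in control siRNA libraries and missed the threshold (log2 fold change -0.39, SE 0.118, adjusted p = 0.0503). In the authors' deposited table its adjusted p was 0.0158. Per kilobase, RRM1 stood at 788 in BRD8 siRNA libraries and 1016 in control siRNA libraries, and TYMS, the least abundant, at 128 in BRD8 siRNA libraries and 206 in control siRNA libraries.

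The fall of TYMS was called in every fit without 1 library. It only just passed without BRD8 library 1 (adjusted p = 0.04999) and without control library 3 (0.0496). The call of RRM1 ended without BRD8 library 3 (adjusted p = 0.0505) and without control library 3 (0.0631). RRM2 was called only without control library 2, and had adjusted p-values of 0.138, 0.101 and 0.0959 without BRD8 library 1, 2 and 3 and of 0.0652 and 0.199 without control library 1 and 3. It also missed the threshold with no filter on low genes (0.0534) and after quantile normalization (0.0636). The promoter of TYMS is shown because it alone of the 4 held E2F letters, in capitals.
TYMS, chr18:657453-657652, plus strand: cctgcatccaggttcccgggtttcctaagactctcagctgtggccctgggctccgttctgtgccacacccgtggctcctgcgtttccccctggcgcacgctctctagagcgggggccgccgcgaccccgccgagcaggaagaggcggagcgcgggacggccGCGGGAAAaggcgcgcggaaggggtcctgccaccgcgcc
The capitals are again the reverse complement of TTTCCCGC, at 39 bases before the start, and CCAAT was not in the searched window.

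**Figure D4:**
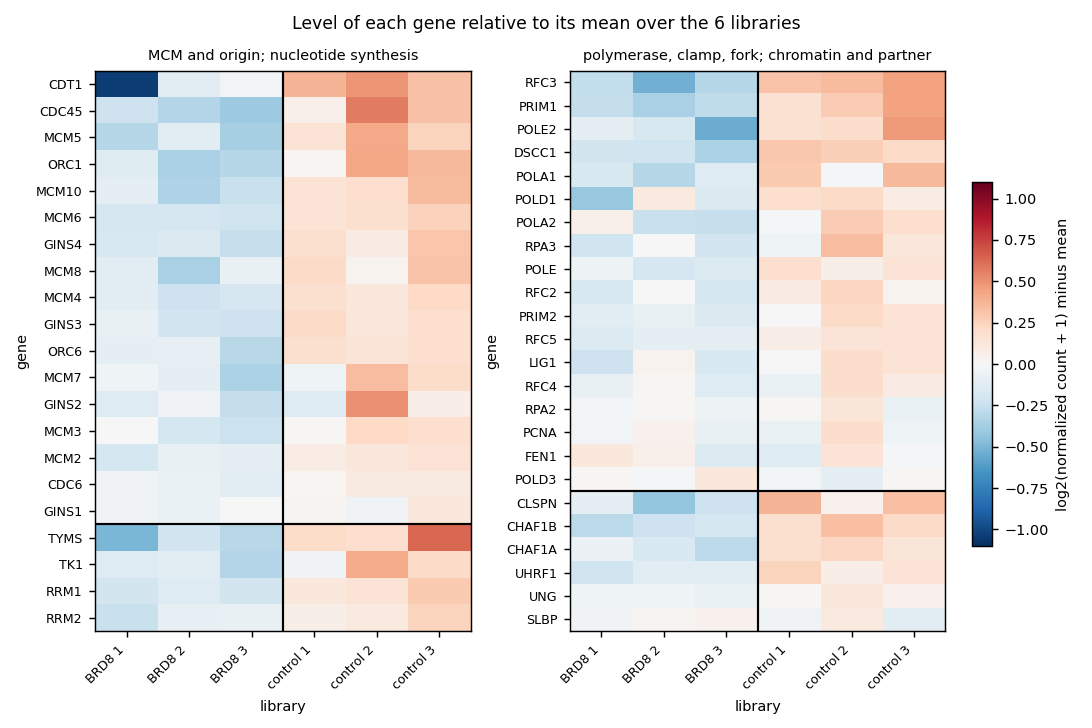
Log2(normalized count + 1) of each replication gene in each library minus its mean over the 6 libraries, with BRD8 siRNA libraries at left and control siRNA libraries at right. Blue fills the left side and red the right for most genes, and CDT1 is lowest in BRD8 library 1. Among the pale or mixed rows are those from RFC4 to POLD3 and those of SLBP, UNG, GINS1, GINS2 and POLA2.

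Of the chromatin and partner genes 4 of 6 fell and 0 rose, and the median log2 fold change was -0.33. CHAF1B and CHAF1A encode subunits of CAF-1, which deposits histones on new DNA. CHAF1B had 373, 391 and 399 normalized counts in BRD8 siRNA libraries, against 517, 574 and 529 in control siRNA libraries (log2 fold change -0.48, SE 0.0874, adjusted p = 0.00689). CHAF1A had 523, 487 and 448 normalized counts in BRD8 siRNA libraries, against 619.8, 640.2 and 599.6 in control siRNA libraries (log2 fold change -0.35, SE 0.0901, adjusted p = 0.0268). Neither gene had overlapping groups, and exons of CHAF1B overlap MORC3 on the same strand and those of CHAF1A overlap UBXN6 on the other. CLSPN, the claspin mediator between stalled forks and the CHK1 kinase, had 403, 322 and 368 normalized counts in BRD8 siRNA libraries, against 561, 446 and 544 in control siRNA libraries (log2 fold change -0.50, SE 0.124, adjusted p = 0.0235). UHRF1, which brings DNA methylation to newly copied strands, had 709, 758 and 765 normalized counts in BRD8 siRNA libraries, against 980.0, 869 and 918 in control siRNA libraries (log2 fold change -0.31, SE 0.0826, adjusted p = 0.0319). Both fell, with control library 2 the lowest of the controls in each. UNG, which removes uracil from DNA, had 1395, 1401 and 1373 normalized counts in BRD8 siRNA libraries, against 1454, 1562 and 1495 in control siRNA libraries, a narrow gap that did not pass (log2 fold change -0.11, SE 0.0702, adjusted p = 0.302). SLBP, which binds the stem-loop of histone mRNAs, had 1448, 1522 and 1540.0 normalized counts in BRD8 siRNA libraries, against 1447, 1603 and 1369 in control siRNA libraries, with the BRD8 siRNA libraries inside the control range (log2 fold change 0.03, SE 0.0825, adjusted p = 0.823). Of the 4 falls only that of CHAF1B was called in every fit without 1 library. CHAF1A, CLSPN and UHRF1 had adjusted p-values of 0.0848 to 0.0886 without BRD8 library 2, 0.0721 to 0.112 without BRD8 library 3, 0.0727 to 0.108 without control library 1 and 0.0821 to 0.116 without control library 3, and UHRF1 had 0.0961 without BRD8 library 1.

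Further genes of the same pathways, 61 in all, were read beside the 45. Of them 13 fell (21.3%) and 1 rose, against 8.93% and 10.1% of all genes tested, and their median log2 fold change was -0.20. Further licensing and firing genes gave 4 falls of 17 (23.5%). TICRR, which brings CDC45 to origins, had 725, 660.0 and 703 normalized counts in BRD8 siRNA libraries, against 1100.4, 978 and 1186 in control siRNA libraries (log2 fold change -0.64, SE 0.0935, adjusted p = 0.00251), and ORC3, a further origin recognition subunit, had 657, 670.4 and 652 normalized counts in BRD8 siRNA libraries, against 847, 817 and 868 in control siRNA libraries (log2 fold change -0.35, SE 0.0753, adjusted p = 0.0126). Both were clearly apart between groups, and only TICRR kept its call in every fit without 1 library, since ORC3 had adjusted p-values of 0.0600 and 0.0740 without BRD8 library 3 and control library 3. Further polymerase and fork genes gave 3 falls of 15 (20%). RFC1, the large clamp loader subunit, had 1735, 1605 and 1826 normalized counts in BRD8 siRNA libraries, against 2439.6, 2080.5 and 2492 in control siRNA libraries (log2 fold change -0.44, SE 0.0927, adjusted p = 0.0126). ATAD5, which unloads PCNA, had 439.8, 382 and 465 normalized counts in BRD8 siRNA libraries, against 785, 488 and 779 in control siRNA libraries (log2 fold change -0.64, SE 0.18, adjusted p = 0.0379). Control library 2 was the lowest control in both. RFC1 missed the threshold without BRD8 library 2 (0.0563) and control library 3 (0.0688), and ATAD5 missed it without any library but control library 2, at 0.0753 to 0.145. The third fall and the single rise were both in polymerase delta, in POLD2 and POLD4, which were named after their values were seen. POLD2, its second subunit, had 4097, 4272 and 3908 normalized counts in BRD8 siRNA libraries, against 4577, 6199 and 5245 in control siRNA libraries (log2 fold change -0.37, SE 0.108, adjusted p = 0.043), with groups that did not overlap. Its call ended after quantile normalization (0.0618) and without BRD8 library 1, 2 or 3 or control library 3, at 0.0874 to 0.141. POLD4, the smallest subunit, had 5275, 5963 and 5032 normalized counts in BRD8 siRNA libraries, against 3441, 4913 and 3665 in control siRNA libraries (log2 fold change 0.45, SE 0.133, adjusted p = 0.0451), and edgeR gave an adjusted p of 0.050, just over the threshold. Without any 1 library but control library 2, POLD4 had 0.0829 to 0.165, and its exons overlap AP003419.1 on the same strand. The further epsilon subunits POLE3 (adjusted p = 0.999) and POLE4 (log2 fold change 0.13, adjusted p = 0.601) did not pass, and their groups overlapped.

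Further nucleotide supply genes gave 3 falls of 21 (14.3%), not far above the 8.93% of all genes tested. Of the 21, 20 had a log2 fold change below 0, against 7983 of the 15354 genes tested. Their median log2 fold change was -0.17, against -0.01 for all genes tested. PAICS, an enzyme of purine synthesis, had 5734, 5611 and 5909 normalized counts in BRD8 siRNA libraries, against 7537, 7453 and 8022 in control siRNA libraries (log2 fold change -0.41, SE 0.0669, adjusted p = 0.004). GMPS, which makes guanylate, had 7800.2, 7844 and 8085 normalized counts in BRD8 siRNA libraries, against 9786, 9909 and 10605 in control siRNA libraries (log2 fold change -0.35, SE 0.0668, adjusted p = 0.00801). The groups of both were well apart, PAICS was called in every fit without 1 library, and GMPS missed the threshold without control library 3 (0.0561) and once the trend with length and GC content was removed (0.0888). Further chromatin assembly genes gave 3 falls of 8 (37.5%, against 8.93% of all genes tested). ASF1B, the histone chaperone that hands histones to CAF-1, had 598, 594 and 587 normalized counts in BRD8 siRNA libraries, against 727, 822 and 813 in control siRNA libraries (log2 fold change -0.41, SE 0.0833, adjusted p = 0.0109). SSRP1, a subunit of the histone chaperone FACT, had 7427, 6799 and 6589 normalized counts in BRD8 siRNA libraries, against 8293, 9268 and 9041 in control siRNA libraries (log2 fold change -0.35, SE 0.0777, adjusted p = 0.0146). Again the groups did not overlap, but ASF1B missed the threshold without BRD8 library 3 (0.0507) and control library 3 (0.0633), and SSRP1 without BRD8 library 2 (0.0653), BRD8 library 3 (0.0731) and control library 3 (0.0759).

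A list of 22 mitosis genes, also chosen with earlier results of these data known, had larger falls by its median in the same libraries. All 22 fell, where 8.93% of all genes tested fell. The median log2 fold change of the 22 was -0.75 and the range -0.97 to -0.50. Of these, CCNB2, a cyclin of mitotic entry, had 1465, 1597 and 1575 normalized counts in BRD8 siRNA libraries, against 2639, 3006 and 2974 in control siRNA libraries (log2 fold change -0.89, SE 0.0806, adjusted p = 3.38e-04), and NDC80, a kinetochore subunit, had 809, 825 and 831 normalized counts in BRD8 siRNA libraries, against 1296, 1294 and 1349.6 in control siRNA libraries (log2 fold change -0.68, SE 0.0713, adjusted p = 6.43e-04). Both kept their calls in every fit without 1 library. The mitosis genes took 0.209%, 0.196% and 0.213% of the reads in BRD8 siRNA libraries, against 0.371%, 0.318% and 0.405% in control siRNA libraries. TOP2A, named after its values were seen, made up much of these shares and had the largest fall of the 22 (log2 fold change -0.97). It averaged 30386 normalized counts in BRD8 siRNA libraries and 59691 in control siRNA libraries. The 22 genes summed to 70500 to 75959 and to 115575 to 144349 in those groups. Lists were compared by counts and medians only, and no test of the difference between them was made.

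**Figure D5:**
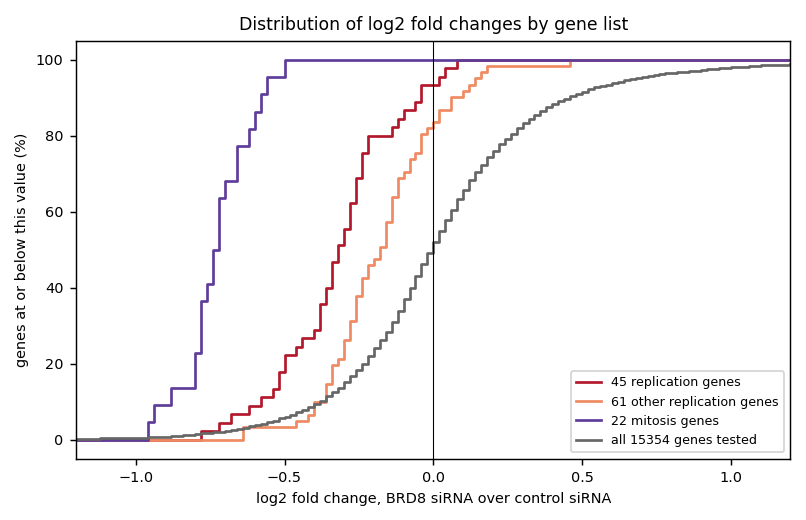
Share of genes at or below each log2 fold change, BRD8 siRNA over control siRNA, for the 45 replication genes, 61 other replication genes, 22 mitosis genes and all 15354 genes tested, in steps of 0.02. The mitosis curve lies furthest left with a median of -0.75, then the 45 replication genes at -0.33, the other replication genes at -0.20 and all genes at -0.01.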

How the data were processed

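Single-library RNA-seq values of 6 Calu3 samples, 3 with BRD8 siRNA and 3 with control siRNA, were used, grouped by the sample titles. STAR 2.6, featureCounts 1.6.3, DESeq2 1.22.1 and hg19 are named, per the submitters' processing notes. Annotation and strand setting: not given in the sources used here. In the deposited table each value is a signal, a read count of a gene over the size factor the authors used for that library, and an adjusted p-value of the authors' own comparison stands beside them. Per the labels, libraries were made from total RNA with TruSeq v2, a kit that does not mark strand. The test written for normalized values was used. Whole reads were recovered from the steps of the values, and 100% were whole within 0.01; 3 reads, the smallest count taken as detected, equal 2.84 to 3.24 normalized counts (counting error only).

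The test was limma 3.58.1, run in R 4.3.3, on log2(normalized count + 1) with a trended prior variance. It covered 15354 genes whose mean reached 10, with adjustment by Benjamini and Hochberg over all of them and a threshold of 0.05. Fold changes are on that log2 scale and understate low genes. Alternatives were edgeR 4.0.16, with its quasi-likelihood test (2969 genes called, against 2920), DESeq2 1.42.0 on the recovered reads, and other pseudocounts, filters, scalings, a replicate block and single libraries left out. The model was also run on simulated counts. The changes set in them were larger than those of most of the listed replication genes. That run therefore does not show how well changes as small as theirs are found.

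The members and lists were chosen with earlier results of these data known. Values in every library are given for whole complexes, for the 3 genes of each role with the smallest adjusted p and the 1 nearest no change, and for the top 2 of each further list; other members were added for completeness. Same-numbered libraries deviated together for 2 of 3 numbers only, so numbers were not used as pairs. Transcript length (longest coding transcript) and exon overlaps came from GENCODE v29, on another build, so no coordinates of the data are given. A listed marker is not reported here. Promoters came from RefSeq GRCh38.p14. Exons of 20 of the 45 genes overlap another gene, and not all of these overlaps are named above. Figures were drawn with matplotlib 3.10.9.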

Additional observations from a re-analysis of the deposited data

How the results depend on the processing

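The direction of the 45 genes as a group held under every alternative run, with a median log2 fold change of -0.37 to -0.30 and 0 genes higher in each. All 25 calls were kept by edgeR, by DESeq2 and with a pseudocount of 0.5 or 5, while 5 were lost with no filter on low genes and 3 after quantile normalization. Removal of the length and GC trend gave 5222 genes called in all, with 14 polymerase, clamp and fork genes lower and 27 further replication genes lower and 2 higher, and FEN1 and SLBP changed sign, to -0.0743 and -0.0414. The replicate numbers were not taken as pairs, with correlations of -0.0845, 0.335 and 0.155 for numbers 1, 2 and 3. These values do not settle whether same-numbered libraries belong together. BRD8 library 1 was closest to control library 3, and BRD8 library 3 to control library 1 (0.326). A replicate block by these numbers gave 3901 genes called in all, 28 of the 45 lower and 20 further replication genes lower. The block with that trend taken out gave 5465 genes called, 38 of the 45 lower, 14 polymerase, clamp and fork genes lower, 31 further genes lower and 2 higher, and -0.0743 and -0.0414 for FEN1 and SLBP. By edgeR 0 further genes were higher. The log2 fold change of POLE3, -0.00 in the limma fit, was 0.0213 after quantile normalization, 0.0117 by edgeR and 0.00327 by DESeq2.

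Leaving out 1 library gave 1361 to 5226 genes called, 7 to 27 of the 45 lower, 2 to 12 origin and helicase, 3 to 7 polymerase, clamp and fork, 1 to 4 nucleotide synthesis and 1 to 4 chromatin genes lower, and 2 to 21 further genes lower and 0 to 1 higher. These fits have fewer samples. Over them the log2 fold change of FEN1 ranged from -0.0571 to 0.0876, of SLBP from -0.0195 to 0.0945, of PCNA from -0.0913 to 0.0396, of RPA2 from -0.0963 to 0.00582, of POLE3 from -0.0175 to 0.022 and of POLE4 from -0.00564 to 0.293. Mean levels of the 45 genes ran from 138 to 5397 normalized counts, well above the floor of 3 reads. No alternative planned was left out.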
